A study of Homo sapiens with 13 samples.

Results

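The response to FK866 of the parental CCRF-CEM line (CEM PA) was set against that of its FK866-resistant derivative (CEM RES), gene by gene. The members were all 13 of the 13 arrays of the series, in 4 groups. CEM PA contributed 3 mock arrays and 2 arrays with FK866. CEM RES contributed 4 mock arrays and 4 with FK866. In both lines the drug was given at 5 nM for 48 h and mock cells received DMSO. All cells were grown in RPMI with serum, antibiotics and glutamine. CEM RES is a population selected in rising concentrations of FK866 and resistant to 100 nM, and the methods state that it was carried in medium with the drug, so that its mock arrays are not of drug-naive cells. For every gene the interaction was computed, that is, FK866 minus mock in CEM RES less FK866 minus mock in CEM PA, on the log2 scale. A negative interaction means that the CEM RES response was the lower of the pair.

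CCRF-CEM grew out of the blood of a patient with T-lineage acute lymphoblastic leukemia and is an established cell line. FK866 blocks NAMPT, the rate-limiting enzyme that rebuilds NAD+ from nicotinamide, and cells that depend on this route lose NAD+ and then ATP. NAD+ is also the substrate of sirtuins and of poly(ADP-ribose) polymerases, so its loss touches deacetylation and the DNA damage response as well as energy supply.

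Of 17594 genes tested, 23 had an interaction at an adjusted p under 0.05 in limma (0.131% of the genes tested), 22 of them negative and 1 positive. By the double threshold of the study's methods, an unadjusted p under 0.05 with an absolute log2 difference over 0.75, the number was 1186 (6.74%), with 641 positive and 545 negative. FK866 changed 90 genes in CEM PA at an adjusted p under 0.05 (0.512%), 69 upwards and 21 downwards, and 962 past the double threshold (5.47%). In CEM RES 0 genes reached an adjusted p of 0.05 in limma, 841 had an unadjusted p under 0.05 and 236 passed the double threshold (1.34%). Under a replicate block the genes at an adjusted p under 0.05 were 503 in CEM PA, 239 of them higher, and 0 in CEM RES, where 1781 had an unadjusted p under 0.05. The median size of the log2 response was 0.244 in CEM PA and 0.135 in CEM RES. Across genes the responses of the lines had a Pearson correlation of -0.041 and a Spearman correlation of -0.080, given as a description since genes are not independent replicates.

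**Figure D1:**
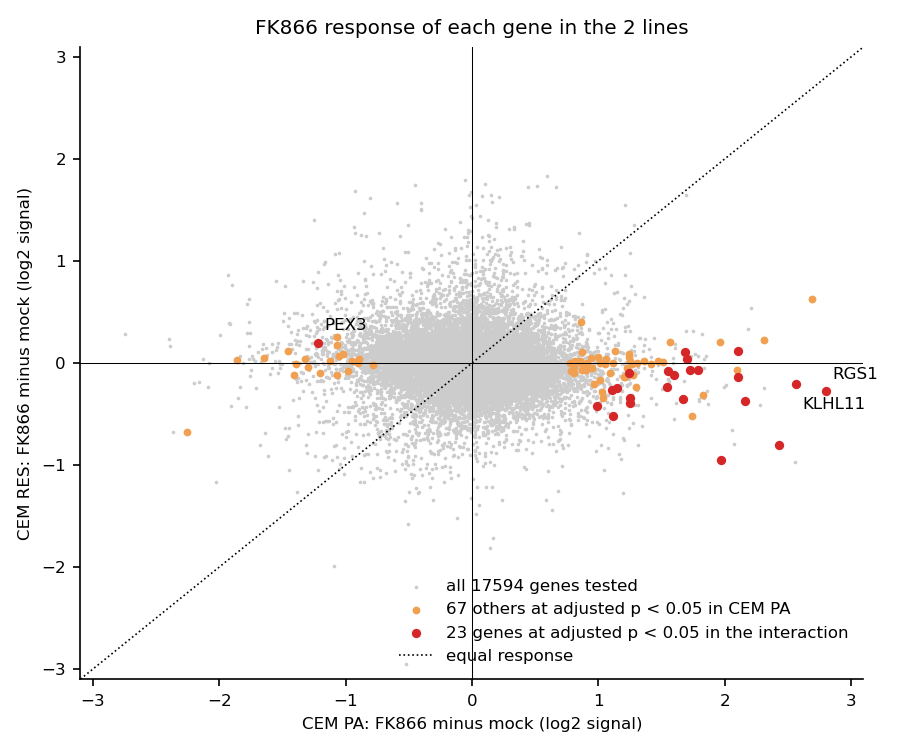
Log2 signal with FK866 minus mock in CEM PA (horizontal axis) against the same difference in CEM RES (vertical axis), 1 point for each of 17594 genes tested. The 23 genes at an adjusted p under 0.05 in the interaction (red) and the 67 other CEM PA responders (orange) lie far from 0 on the horizontal axis and mostly near 0 on the vertical axis, away from the dotted line of equal response.

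All 23 interaction genes were also past an adjusted p of 0.05 in CEM PA, where FK866 and mock arrays had no value range in common. In CEM RES the FK866 and mock arrays overlapped in 18 of the 23 and were separate in 5. For comparison, the CEM PA groups were separate in 34.4% of all genes tested and the CEM RES groups in 2.52%. The median response of the 23 was 1.67 in CEM PA and -0.23 in CEM RES. The CEM RES response is a term of the interaction, so its sign is in part fixed by the choice of genes, and 19 of the 23 were lower with FK866 there. Within pairs of equal replicate number, 12 of the 23 were lower with FK866 in all 4 CEM RES pairs and PEX3 was higher in all 4. The overlap of unpaired arrays takes no account of these pairs. The direction within pairs is likewise in part fixed by the choice of genes, so it is given as a description. All 4 pairs ran 1 way in 18.6% of all genes. KLHL11 differed by -0.21, -0.23, -0.13 and -0.23 in the pairs and MME by -0.23, -0.24, -0.34 and -0.60. With the replicate number as a block 0 of the 23 reached an adjusted p of 0.05 in CEM RES in limma, and 9 had an unadjusted p under 0.05.

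KLHL11, a BTB-kelch protein of the kind that brings substrates to cullin 3 ubiquitin ligases, had the smallest p. Its log2 signal was 7.37, 7.39 and 7.54 on the mock arrays of CEM PA and 9.95 and 10.06 with FK866. In CEM RES it was 8.91, 8.85, 8.42 and 8.62 on the mock arrays and 8.70, 8.62, 8.29 and 8.39 with FK866. The CEM PA groups were far apart, the CEM RES groups overlapped, and all 8 CEM RES arrays lay between the CEM PA groups. The interaction was -2.77 (standard error 0.23, 95% interval -3.28 to -2.26, adjusted p = 0.000894).

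RGS1, a GTPase-activating protein that damps G protein signalling in lymphocytes, had log2 signals of 5.72, 6.26 and 6.26 in mock-treated CEM PA and 8.82 and 8.93 with FK866. In CEM RES the mock arrays gave 5.42, 5.04, 5.68 and 5.35 and the FK866 arrays 4.68, 5.12, 5.01 and 5.57. Every CEM RES array was thus below every CEM PA array, and its groups overlapped. The interaction was -3.08 (standard error 0.34, 95% interval -3.81 to -2.34, adjusted p = 0.00719), and without FK866 replicate 2 of CEM PA the adjusted p was 0.0756.

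The promoters of these genes, 300 bases that reach 50 bases past the start, are shown because both members rose in CEM PA and not in CEM RES. They are from RefSeq on GRCh38.p14, for KLHL11 chr17:41865374-41865673 on the minus strand and for RGS1 chr1:192575523-192575822 on the plus strand. Capitals mark matches on either strand to the CRE motif TGACGTCA, the AP-1 motif TGANTCA, the CCAAT box and the TATA box TATAAA.
KLHL11: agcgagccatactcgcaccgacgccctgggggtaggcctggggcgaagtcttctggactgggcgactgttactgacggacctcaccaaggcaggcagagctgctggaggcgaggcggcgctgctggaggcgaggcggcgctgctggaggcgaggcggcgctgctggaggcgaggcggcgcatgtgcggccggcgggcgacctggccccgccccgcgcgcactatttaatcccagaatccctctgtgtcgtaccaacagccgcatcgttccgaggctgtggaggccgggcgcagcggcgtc
RGS1: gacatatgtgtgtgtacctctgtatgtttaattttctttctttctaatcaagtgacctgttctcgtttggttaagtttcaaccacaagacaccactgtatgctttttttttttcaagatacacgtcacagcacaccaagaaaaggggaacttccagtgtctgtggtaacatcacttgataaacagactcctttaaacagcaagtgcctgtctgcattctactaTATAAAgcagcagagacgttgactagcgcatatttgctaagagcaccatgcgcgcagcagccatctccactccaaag
The KLHL11 window held 0 matches, and the RGS1 window held 1, a TATAAA that covers bases -27 to -22 from the start. Of 35116 promoters of this length, 1.85% held TGACGTCA, 7.71% TGANTCA, 34.6% CCAAT and 11.5% TATAAA.

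FLCN encodes folliculin, a regulator of amino acid signalling to mTORC1. The probe used for it lay at chromosome 17, 17124668 to 17124727 on hg19, and is annotated to transcript variant 2. Its log2 signal was 9.25, 9.48 and 9.89 in mock-treated CEM PA and 11.72 and 11.58 with FK866, without overlap. In CEM RES it was 9.82, 9.68, 9.86 and 9.59 in mock cells and 9.40, 9.67, 9.82 and 9.51 with FK866, at the level of mock-treated CEM PA. The interaction was -2.24 (standard error 0.25, adjusted p = 0.00719).

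LATS1, a kinase of the Hippo pathway, had log2 signals of 5.65, 6.25 and 6.44 in mock-treated CEM PA and 8.23 and 8.32 with FK866. The CEM RES arrays gave 6.67, 7.11, 6.79 and 6.83 in mock cells and 6.73, 6.60, 6.19 and 6.40 with FK866, so that the groups of this line overlapped at 6.67 to 6.73. The interaction was -2.53 (standard error 0.30, adjusted p = 0.00956).

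KLHL15, also a BTB-kelch adaptor, was dimmer, at 4.91, 4.77 and 4.76 in mock-treated CEM PA and 6.67 and 6.53 with FK866. In CEM RES its signals ran from 5.10 to 5.65 in mock cells and from 5.18 to 5.50 with FK866. The interaction was -1.85 (standard error 0.23, adjusted p = 0.0111), and 0.0602 with the replicate number as a block.

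DNAJC3, a co-chaperone of the endoplasmic reticulum that restrains the kinases PERK and PKR, had log2 signals of 9.61, 9.77 and 9.87 in mock-treated CEM PA and 11.00 and 10.72 with FK866. In CEM RES the 4 mock arrays ran from 9.85 to 10.15 and the 4 FK866 arrays from 9.59 to 9.76, all lower. It was among the 5 interaction genes whose CEM RES groups did not overlap, and its response there was -0.27 (95% interval -0.53 to 0.0025). The interaction was -1.37 (standard error 0.20, adjusted p = 0.0276, and 0.0589 with the replicate block).

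PEX3, needed to build peroxisomal membranes, was the only one of the 23 with a positive interaction. It fell in CEM PA, from 10.04, 10.06 and 10.38 in mock cells to 8.85 and 9.02 with FK866. In CEM RES the mock arrays gave 9.64, 9.70, 9.91 and 9.75 and the FK866 arrays 9.82, 9.80, 10.05 and 10.11, which overlapped. The interaction was 1.42 (standard error 0.21, adjusted p = 0.0312, and 0.0526 with the replicate block).

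**Figure D2:**
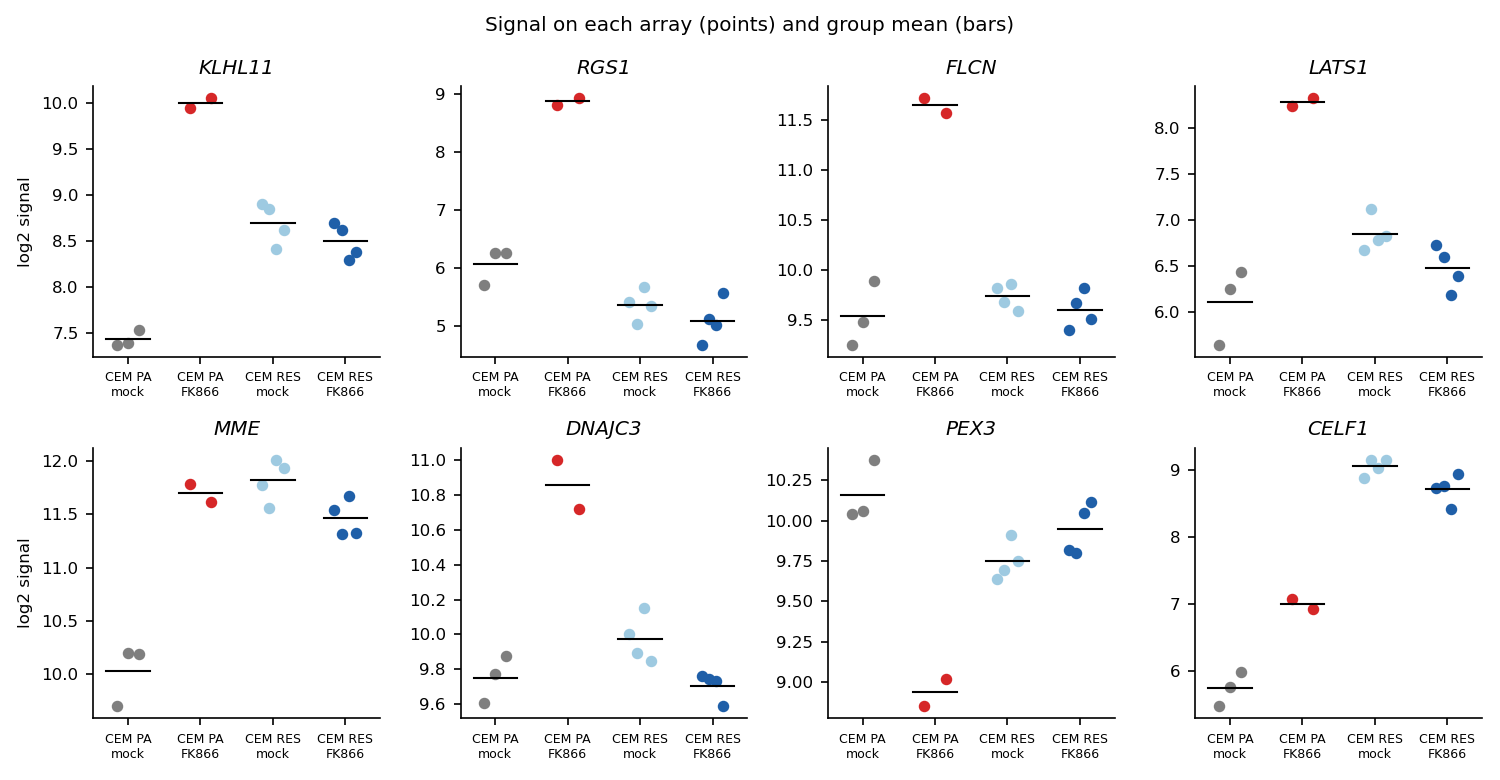
Log2 signal (vertical axis) of 8 of the 23 interaction genes on each array (points) in the 4 groups, with the group mean as a bar; the vertical scale differs between panels. In CEM PA the FK866 points lie clear of the mock points in every panel, while in CEM RES the groups overlap or lie close together, and the mock level of CEM RES differs from gene to gene.

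The other interaction genes covered several functions. RMND5A, a subunit of the CTLH ubiquitin ligase, had an interaction of -1.79 (adjusted p = 0.0147), and SPTBN1, a spectrin of the membrane skeleton, one of -1.72 (adjusted p = 0.0136). WDR33, the subunit of the cleavage and polyadenylation complex that reads the poly(A) signal, had -1.63 (adjusted p = 0.0400). CELF1 and RBM33, both RNA-binding proteins, had -1.60 and -1.66. PCGF3, a polycomb group ring finger protein, had -1.34, MARCH8, a membrane ubiquitin ligase, -1.78, and the kinase STK17B -1.40. MME, the cell surface peptidase CD10, had -2.02 and SEMA7A, a membrane-anchored semaphorin, -1.64. SAMD8, SECISBP2L, FAM22G, C6orf106 and a probe on chromosome 16 with no gene name in the array design made up the rest with POLR2M. The POLR2M gene encodes a protein bound to RNA polymerase II, but its kept probe is annotated to transcript variant 3, a non-coding RNA. POLR2M was not well above background on any mock array of CEM PA and was so on both FK866 arrays, at least 3.08-fold brighter with the drug. Its probe was kept through the FK866 group of CEM PA alone, so detection on both of those arrays was a condition of its being tested.

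With the replicate number as a block, 31 genes passed in place of 23, of which 12 were among the 23. The 11 that lost the call were PEX3, CELF1, SAMD8, SEMA7A, FAM22G, DNAJC3, KLHL15, STK17B, MARCH8, RBM33 and POLR2M, with adjusted p from 0.0526 (PEX3) to 0.0836 (POLR2M) in limma. With the scan session as a block 20 of the 23 kept it. In CEM PA, where each scan session holds both treatments, all 23 kept their direction in either session. This was fixed in advance, since in all 23 the FK866 and mock arrays of CEM PA had no range in common. No session held both lines, so line and session cannot be told apart in any level compared between the lines. The count depended on single arrays, above all on the 2 FK866 arrays of CEM PA. Without FK866 replicate 2 of CEM PA 1 gene passed (KLHL11) and without replicate 1 it was 5, of which 2 were among the 23. Without mock replicates 1, 2 and 3 of CEM PA the numbers were 7, 11 and 19. Leaving out FK866 replicates 1, 2, 3 and 4 of CEM RES gave 9, 9, 9 and 12, and leaving out its mock replicates 1, 2, 3 and 4 gave 13, 11, 10 and 8. KLHL11 alone passed in all 26 alternatives, and all 23 kept their direction in every alternative run.

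Sorted by where the response lay, the 1186 genes past the double threshold in the interaction were mostly genes of CEM PA. In 665 (56.1%) CEM PA passed the double threshold and CEM RES did not, with 313 higher and 352 lower in CEM PA. Only CEM RES passed in 39, both lines passed in opposite directions in 10 and in the same direction in 0. In 472 neither line passed on its own. The 10 genes of opposite direction comprised 8 that were higher in CEM PA and lower in CEM RES, and 3 of the 10 were well above background on all 13 arrays. These were RNU2-2, a U2 spliceosomal RNA gene, LUZP6 and the unnamed probe on chromosome 16. That probe gave 7.30, 8.14 and 8.21 in mock-treated CEM PA, 9.77 and 9.94 with FK866, then 10.25, 9.13, 10.28 and 9.43 in mock-treated CEM RES and 8.78, 8.68, 9.05 and 8.79 with FK866. It was thus high with the drug in CEM PA and high without it in CEM RES, with no overlap in either line.

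The 39 genes of CEM RES alone were mostly dim. They comprised 25 that were higher and 14 that were lower with FK866, 10 of the 39 were well above background on all arrays, and none had an interaction at an adjusted p under 0.05. The largest interaction among those 10 was that of RN5-8S1, the 5.8S ribosomal RNA, with 5.47, 6.27 and 7.16 in mock-treated and 6.60 and 6.27 in FK866-exposed CEM PA. In CEM RES it was 11.51, 10.62, 10.63 and 11.01 in mock cells and 10.70, 8.86, 8.91 and 8.06 with FK866, which overlapped at 10.62 to 10.70 (interaction -1.95, standard error 0.81, adjusted p = 0.404). Its response in CEM RES was -2.61 on one slide and -1.01 on the other. RNF222 gave 9.10, 8.47, 8.23 and 8.41 in mock-treated CEM RES and 8.09, 7.67, 7.44 and 7.16 with FK866, without overlap. The response was -0.96 (95% interval -1.44 to -0.48), and the signal ran from 6.60 to 6.89 over all CEM PA arrays. A dimmer kept probe of RNF222 went the other way, with 0.52 in CEM RES and an interaction of 0.74. Over the alternatives the interaction of RNF222 ran from -1.17 to -0.13. The transcription factor gene EN2 had a response of -0.80 in CEM RES and 0.32 in CEM PA. In the other direction KLHDC1, a kelch domain protein, had 0.98 in CEM RES and -0.32 in CEM PA, and RNF208 had 0.77 and -0.35. The number of such genes was 25 without FK866 replicate 2 of CEM PA, 18 without mock replicate 1 of CEM RES, 124 without mock replicate 2 and 89 without mock replicate 4.

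Of the 90 genes that FK866 changed in CEM PA at an adjusted p under 0.05, 89 passed the double threshold in the interaction. The CEM PA response is a term of the interaction, so this count was in large part fixed by the choice of genes. The exception was NUDT4, a diphosphoinositol phosphate phosphatase, with responses of 0.87 in CEM PA and 0.41 in CEM RES. Its arrays gave 8.53, 8.29 and 8.23 and then 9.27 and 9.16 in CEM PA, and 7.09, 7.47, 7.26 and 7.23 and then 7.74, 7.64, 7.76 and 7.52 in CEM RES, so that its groups were separate in both lines. The 69 genes that rose in CEM PA had a median response of -0.06 in CEM RES, with 22 higher and 47 lower, and the 21 that fell had a median of 0.02, with 12 higher and 9 lower.

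Whether mock-treated CEM RES already stood at the level of drug-exposed CEM PA was asked next. The levels share arrays with the CEM PA response, so they are given side by side with no test of their relation. Between the lines 8389 genes differed in mock cells at an adjusted p under 0.05 (47.7%), and 6958 differed between mock-treated CEM RES and FK866-exposed CEM PA (39.5%). Of the 90 CEM PA responders, mock-treated CEM RES was nearer to FK866-exposed than to mock-treated CEM PA in 25 (27.8%), against 51.7% of all genes tested. It lay on the far side of the CEM PA mock level in 27, between the CEM PA groups but nearer to mock in 38, between them but nearer to FK866 in 14 and past the FK866 level in 11. In 72 of the 90 (80.0%) it differed from the FK866-exposed parental level at an adjusted p under 0.05. Over the 962 CEM PA responders by the double threshold the share nearer to FK866 was 52.6%, with 43.3% of the 439 that rose and 60.4% of the 523 that fell. Among the 90 the order was reversed, with 30.4% of the 69 that rose and 19.0% of the 21 that fell. The value of 27.8% depended on single arrays, with 0 of 17 responders without FK866 replicate 1 of CEM PA and 8.33% of 12 without replicate 2, against 11.5% and 15.8% without mock replicates 1 and 2 of CEM PA, 38.6% without its mock replicate 3, and 15.6% and 17.9% without FK866 replicate 3 and mock replicate 2 of CEM RES.

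Among the 23 interaction genes mock-treated CEM RES was nearer to FK866-exposed CEM PA in 7. MME gave 9.70, 10.20 and 10.19 in mock-treated CEM PA, 11.78 and 11.61 with FK866, and 11.77, 11.56, 12.01 and 11.93 in mock-treated CEM RES. The resistant cells without drug overlapped the parental cells with drug, and the difference between these groups was 0.12 (95% interval -0.30 to 0.54). With FK866 the CEM RES arrays gave 11.54, 11.32, 11.67 and 11.33. SEMA7A differed by -0.08 (95% interval -0.51 to 0.35), SECISBP2L by 0.15 (-0.26 to 0.56) and the unnamed probe on chromosome 16 by -0.08 (-0.82 to 0.65). These levels are those of the chosen probes only. The other kept probes of MME had CEM PA responses of -0.48 and 0.14, against 1.67 at the chosen one. That of SECISBP2L had 0.54, against 1.25.

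CELF1 and C6orf106 lay past the drug-exposed parental level. CELF1 gave 5.48, 5.76 and 5.98 in mock-treated CEM PA and 7.07 and 6.92 with FK866, but 8.88, 9.15, 9.03 and 9.15 in mock-treated CEM RES, a difference from drug-exposed CEM PA of 2.06 (95% interval 1.66 to 2.46). C6orf106 differed from it by 0.75 (0.37 to 1.14) at the chosen probe. Its other kept probe, of nearly equal brightness, had a CEM PA response of -0.08 and an interaction of 0.09. RGS1, FAM22G, RBM33, WDR33 and SAMD8 lay on the other side, with mock-treated CEM RES below mock-treated CEM PA and a difference from the drug-exposed level of -3.50 (RGS1) to -2.16 (SAMD8). KLHL11 was in between, 1.26 above the CEM PA mock level and -1.30 from the FK866 level.

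**Figure D3:**
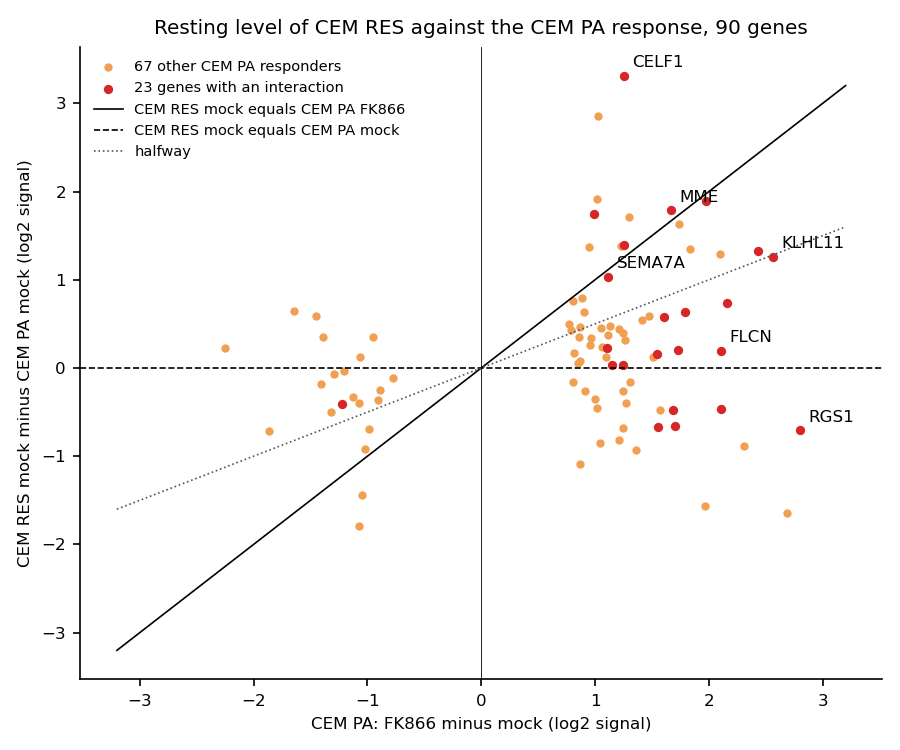
For the 90 genes changed by FK866 in CEM PA, the CEM PA response (horizontal axis, log2) against the difference between mock-treated CEM RES and mock-treated CEM PA (vertical axis, log2). Points on the solid line have mock-treated CEM RES at the level of FK866-exposed CEM PA, points on the dashed line at that of mock-treated CEM PA, and those on the dotted line midway. MME and SEMA7A sit near the solid line, CELF1 above it, FLCN near the dashed line and RGS1 below it.

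The gene lists are described by counts, to be read against the 6.74% of all genes that passed the double threshold, and only KLHL11, KLHL15, RGS1 and DNAJC3 of all list members passed an adjusted p of 0.05. Of 16 tested genes of NAD+ biosynthesis 2 passed the double threshold (12.5%), both positive, namely AADAT, an aminotransferase of the kynurenine route (1.07), and C9orf95, a nicotinamide riboside kinase (0.78). NAMPT itself gave 11.69, 11.76 and 12.26 in mock-treated CEM PA, 11.52 and 11.60 with FK866, 11.25, 10.86, 11.00 and 11.29 in mock-treated CEM RES and 11.26, 10.78, 10.97 and 11.37 with FK866. At this probe, its brightest, the CEM RES groups overlapped, the CEM PA groups did not, and the interaction was 0.34 (95% interval -0.29 to 0.97, adjusted p = 0.700). The other kept probes of NAMPT went the other way, with responses of 0.53 and 0.27 in CEM PA and interactions of -0.74 and -0.08. QPRT, which turns a tryptophan product into an NAD+ precursor, had an interaction of -0.32 (adjusted p = 0.718). The list's median interaction was 0.07, against 0.0024 over all genes tested.

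Of 26 NAD+ consumers, 3 passed the double threshold. SIRT3, the mitochondrial deacetylase, had 0.89 and the tankyrase TNKS 1.12, while PARP15 had -0.98. SIRT3 gave 11.51, 11.50 and 11.69 in mock-treated CEM PA and 10.80 and 10.74 with FK866. Its CEM RES arrays all lay from 10.19 to 10.65, below the drug-exposed parental arrays. SIRT1 had an interaction of -0.38 (95% interval -0.79 to 0.03), with FK866 arrays above the mock arrays in both lines. Among 39 lysine acetyltransferases and deacetylases and their partners HDAC4 (0.93) and TADA2A (-0.97) passed.

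Of 34 glycolytic genes 4 passed the double threshold, all with a positive interaction. They were PFKFB4 (1.43), which sets the level of fructose 2,6-bisphosphate, ENO3 (0.98), PDK3 (0.82), a kinase that shuts pyruvate dehydrogenase, and PFKP (0.76), a phosphofructokinase. LDHA had an interaction of 0.50 (adjusted p = 0.485). The list's median interaction was 0.30, with a median response of -0.32 in CEM PA and 0.02 in CEM RES. None of the 78 nuclear and 13 mitochondrially encoded subunits of oxidative phosphorylation passed, and none of 34 autophagy genes. RPTOR, the mTORC1 scaffold, had 0.89 and PRKAA1, the catalytic subunit of AMPK, -1.04, while the other kept probe of PRKAA1 had 0.22.

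Of 39 genes of the integrated stress response PPP1R15A (-1.44), the phosphatase subunit that ends it, and DDIT3, the transcription factor CHOP (-0.88), passed. DDIT3 gave 9.01, 9.20 and 8.37 in mock-treated CEM PA, 9.63 and 9.65 with FK866 and 9.62, 9.87, 9.91 and 9.24 in mock-treated CEM RES, which spanned the drug-exposed parental level. Of 44 genes of DNA damage and p53, MDM4 (-1.30), MDM2 (-0.94) and the checkpoint kinase CHEK1 (-0.83) were negative and BRCA1 (0.76), RRM2B (0.89) and GADD45G positive. The other kept probe of RRM2B had -1.24, and those of MDM2 had -1.22 and 0.37. GADD45G was well above background on neither FK866 array of CEM PA and on 1 of 4 in CEM RES, so that its interaction has no measured size, and it was at least 1.44-fold dimmer with the drug in CEM PA. Of 20 BCL2 family members the killer HRK had -1.38 and the survival factor BCL2L2 1.68.

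Of 39 immediate early genes and MAPK phosphatases 4 passed, all negative, namely DUSP10 (-1.13), DUSP4 (-1.01), the transcription factor ATF2 (-0.99) and SPRY2 (-0.84), and the list's median was -0.33. DUSP4 and DUSP10 are phosphatases that switch off MAP kinases. Of 43 T cell receptor and activation genes NFATC2 (-0.75) passed, of 13 regulators of G protein signalling RGS1, and of 32 KLHL genes KLHL11, KLHL15, KLHL3 (0.89) and KLHL32 (1.91, well above background on 1 of the 2 FK866 arrays of CEM PA). DNAJC3 was 1 of 29 heat shock proteins, INSIG1 (0.90) 1 of 27 genes of cholesterol synthesis and SLC6A6 (1.18) 1 of 20 amino acid transporters. None of 40 genes of the G1/S transition and DNA replication passed.

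Several genes were measured by more than 1 probe, and these often differed in their response. Of the 23 interaction genes 10 had a single kept probe and 13 had others, 21 in all. Of these 21 other probes 3 passed the double threshold in the direction of the chosen probe. Of all probes that are not the brightest 12.5% passed in either direction. An interaction of opposite sign was found at 5 of the 21, among them a WDR33 probe that passed the double threshold (1.00). The absolute interaction was under 0.75 at 15, and 0 passed an adjusted p of 0.05 when all probes were tested. The other FLCN probes had interactions of -0.68 and -0.13, that of LATS1 -0.25, those of MME 0.69 and -0.26, and that of SPTBN1, annotated to transcript variant 1 where the chosen probe is annotated to variant 2, 0.28. Along the transcript 15 of the 21 lay 3′ of the chosen probe. The 23 were chosen on the other probe of each pair, so these differences are a description.

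All 22751 kept probes were therefore also tested singly, a step taken after the values had been seen. At an adjusted p under 0.05, 94 had an interaction (0.413%), each in a different gene. Of the 17594 probes that are the brightest of their gene 34 passed (0.193%), and of the 5157 others 60 (1.16%). Of these 60, 58 had a negative interaction, with a median response of 1.63 in CEM PA and -0.19 in CEM RES. At the brightest probes of the same genes the medians were 0.0043 and 0.06, and 5 of the 60 brightest probes passed the double threshold in the same direction and 4 in the opposite one, where 6.72% of all brightest probes passed in either. In 50 of the 60 genes the brightest probe had an absolute interaction under 0.75. Of the 60 dimmer probes 53 were well above background on all 13 arrays and 7 were not, the least being that of PARP1, detected on 3 arrays and kept through the FK866 group of CEM PA alone. The 60 had a median log2 signal of 7.46 against 10.4 at the brightest probes. At equal brightness, a mean log2 signal from 6 to 8, the double threshold was passed by 14.6% of 1352 probes that are not the brightest and by 8.08% of 2922 that are. The share was also higher for the former up to 6 (12.8% against 7.35%), from 8 to 10 (14.1% against 9.1%) and from 10 to 12 (9.6% against 6.03%), and lower over 12 (2.65% against 3.03%).

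The position of the 58 probes with a negative interaction was described next. On hg19, 53 of them lay 5′ of the brightest probe of their gene along the transcript and 5 lay 3′ of it, that is, 8.62%, against 32.7% of 5118 probes that are not the brightest and have a position on the same strand. Their median distance from the brightest probe was 39360 bases, against 5064 for all such probes, with a range from 247 to 761629. In CEM PA the FK866 arrays lay above the mock arrays in all 58, which fixes a rise in either scan session. The rise was over 0.75 in both sessions in 57. In CEM RES the groups overlapped in 51. Mock-treated CEM RES was nearer to FK866-exposed CEM PA in 19 of the 58 and below it at an adjusted p under 0.05 in 41. With the replicate block 244 such probes passed in place of 60, 219 of them negative. Without FK866 replicates 1 and 2 of CEM PA 8 and 7 passed, without its mock replicate 2 it was 23, and leaving out other arrays gave 27 to 87.

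**Figure D4:**
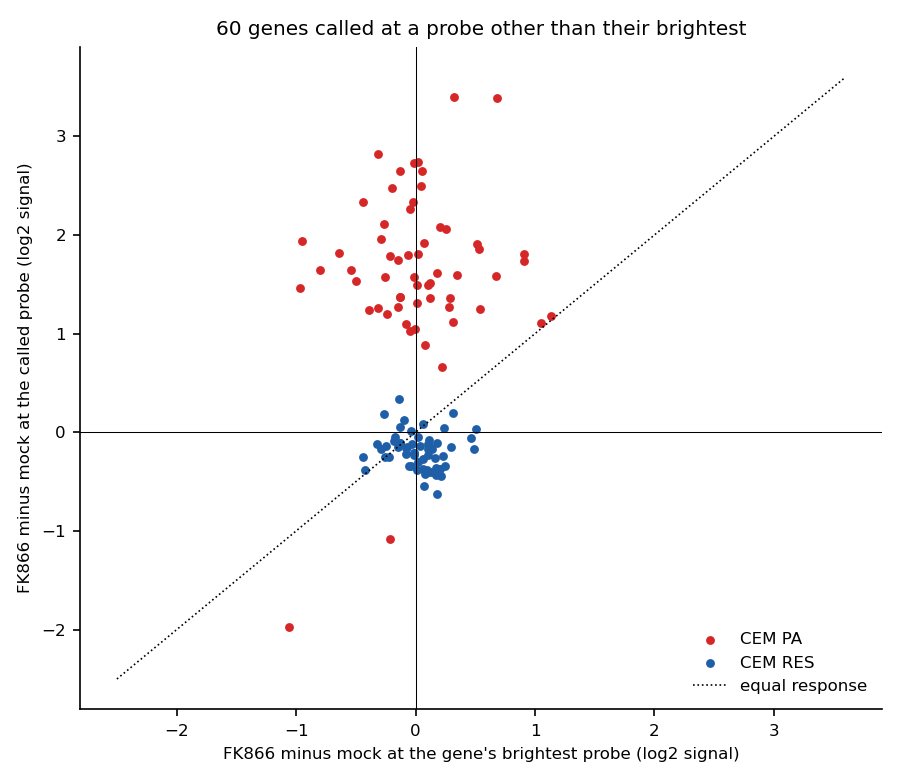
FK866 response (log2) at the brightest probe of a gene (horizontal axis) and at the called probe of the same gene (vertical axis), for the 60 genes called at a probe that is not their brightest, in CEM PA (red) and CEM RES (blue). In CEM PA 54 of the 60 points lie over 0.75 above the dotted line of equal response, IPO7 and INF2 lie close to it and DIS3L2 and ZNF248 below it, and the CEM RES points gather near 0.

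The 6 smallest p values among these probes were those of RAI1, TAGAP, OPA1, ZNF584, IKZF2 and CREB3L2. The RAI1 probe (chromosome 17, 17707296 to 17707355), 6891 bases 5′ of the brightest, gave 6.33, 6.43 and 6.63 in mock-treated CEM PA and 9.22 and 9.16 with FK866. In CEM RES it gave 6.28, 6.06, 5.97 and 6.04 in mock cells and 6.02, 6.02, 5.70 and 5.73 with the drug, near or under the parental mock level. Its interaction was -2.95 (standard error 0.22, adjusted p = 0.000215), and the brightest probe had -0.07.

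TAGAP is named for its expression in activated T cells. Its probe for transcript variant 3 gave 5.83, 5.81 and 6.18 in mock-treated CEM PA and 9.33 and 9.32 with FK866, and ran from 4.15 to 5.08 over all CEM RES arrays. The interaction was -3.52 (standard error 0.31, adjusted p = 0.000582), and at the brightest probe it was -0.57.

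OPA1 encodes the dynamin of mitochondrial inner membrane fusion. Its probe for transcript variant 2 lay 81378 bases 5′ of the brightest and gave 6.50, 6.42 and 6.96 in mock-treated CEM PA and 9.27 and 8.95 with FK866. In CEM RES it gave 8.55, 8.46, 8.76 and 8.31 in mock cells and 8.46, 8.14, 8.19 and 7.81 with the drug, so that the resistant cells stood high in both conditions. The interaction was -2.85 (standard error 0.29, adjusted p = 0.00220), and 0.39 at the brightest probe.

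IKZF2, the Ikaros family factor Helios, had a probe for transcript variant 2 that lay 147898 bases 5′ of the brightest and gave 7.89, 7.90 and 8.77 in mock-treated CEM PA and 10.95 and 10.72 with FK866. The CEM RES arrays ran from 9.08 to 9.44 in mock cells and from 8.63 to 9.21 with the drug. The interaction was -3.02 (adjusted p = 0.00308), and 0.19 at the brightest probe. ZNF584 had -2.14 (adjusted p = 0.00257) and -0.05, and CREB3L2, a transcription factor of the endoplasmic reticulum stress family, -1.94 (adjusted p = 0.00539) and 0.02. The calls at the RAI1, TAGAP, OPA1, ZNF584 and IKZF2 probes held in all 24 alternatives, the 13 arrays left out in turn included, and that at the CREB3L2 probe was lost without FK866 replicate 2 of CEM PA.

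**Figure D5:**
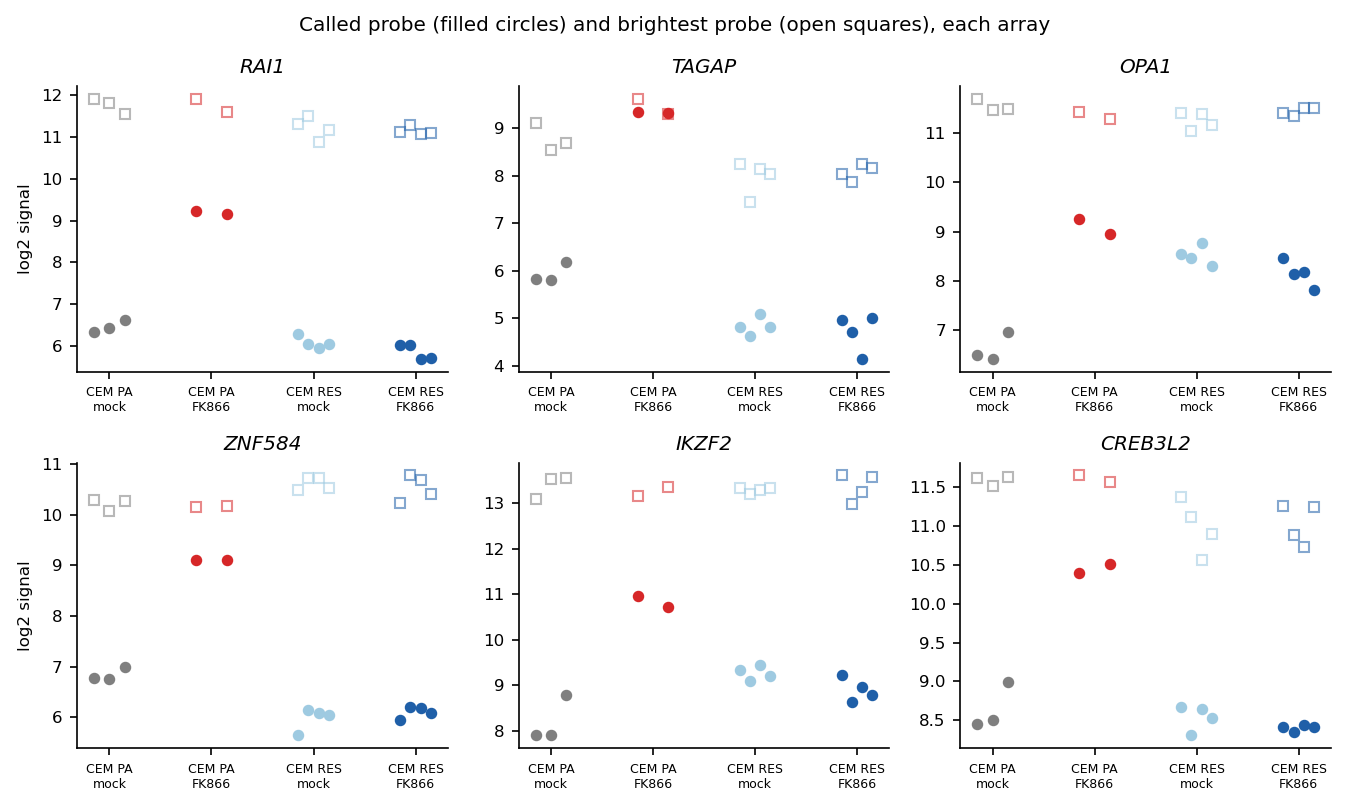
Log2 signal (vertical axis) on each array in the 4 groups for the called probe (filled circles) and the brightest probe (open squares) of 6 genes; the vertical scale differs between panels. The filled circles rise with FK866 in CEM PA and not in CEM RES, while the open squares of mock and FK866 overlap within each line, except that in CEM PA those with FK866 lie above mock for TAGAP and below mock for OPA1.

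Other genes of this kind, named after their values were seen, show the range. At a probe for transcript variant 5 of RPL28, a ribosomal protein, the response was 1.52 in CEM PA and -0.17 in CEM RES (interaction -1.69, adjusted p = 0.0186), while the brightest probe had 0.12 and 0.10. WNK1, a kinase of ion transport, had 2.74 and -0.27 at its called probe and 0.02 and 0.06 at its brightest. The taurine transporter gene SLC6A6 moved in opposite ways, with 1.47 in CEM PA at its called probe and -0.97 at its brightest, the probe that gave the positive interaction above. The 2 positive calls were DIS3L2 (2.03), an exoribonuclease, and ZNF248 (1.41).

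All 12 T cell leukemia markers, among them CD3D, CD7 and LCK, were well above background on all 13 arrays. Of the markers of other cells 3 of 6 B cell, 3 of 6 myeloid and 3 of 9 epithelial and fibroblast genes were so, with CD22, EPCAM, CDH1, COL1A1 and COL3A1 on no array. The log2 of the summed myeloid signal ran from 9.89 to 10.3 in CEM PA and from 7.79 to 8.40 in CEM RES, and within a line the ranges of the mock and FK866 arrays overlapped. The part of this difference in the levels between lines was not tested. From 26457 to 33239 of 43118 spots per array were well above background and 0 were saturated, and RES mock replicate 1 had 773 outlier spots against 195 to 344 on the other arrays. A level per culture cannot separate less RNA per cell from fewer cells that make it.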

How the data were processed

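RNA of CCRF-CEM cells was measured on 1-colour Agilent human 4x44K v2 arrays, 1 per sample, with 3 mock and 2 FK866 arrays of CEM PA and 4 mock and 4 FK866 arrays of CEM RES. The authors deposited scanner intensities, with background-subtracted processed signals made by Feature Extraction 10.7.7.1, and a table of log2 values that the authors had quantile normalized. The deposited log2 table followed the processed intensities with a Spearman correlation of at least 0.99998 on every array and was used as an alternative.

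For the main values, processed intensities were put on the log2 scale, outlier spots were set to missing, control spots were left out, arrays were quantile normalized and spots of a probe were averaged. Of 34127 probes 22751 were kept that were well above background on all arrays of at least 1 group, and each of 17594 genes was represented by its brightest kept probe. limma 3.58.1 in R 4.3.3 fitted the 4 groups in 1 model (residual degrees of freedom 9), with two-sided tests and Benjamini-Hochberg adjustment over all genes. The double threshold was an unadjusted p under 0.05 with an absolute log2 difference over 0.75. Adjusted p values in the text are from this fit unless another is named. The code was tested on simulated data. A fold change of a gene not well above background in a group is given as a bound, against the higher of the dimmest well-detected signal and its own.

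Named genes were all those at an adjusted p under 0.05 in the interaction, the largest interactions of genes that responded in CEM RES alone or in opposite directions, up to 3 members in each direction per gene list, genes the study names, and CEM PA responders outside the interaction. Members, lists and rules were chosen with earlier results of these data known, and the test of single probes was added after the values had been seen. Names in the array design can be old, and 14469 of 17594 matched a current symbol or synonym. Of the value columns 0 were left unused. Coordinates are those of the array design on hg19, with position along the transcript taken from the order on the strand.

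The labels call the samples biological replicates and number them, with no word on separate cultures, so p values measure the spread between these samples. In CEM RES mock and FK866 arrays of equal number went together, as their deviations from the group means correlated at 0.217, 0.390, 0.484 and 0.295. In CEM PA the equal numbers gave 0.440 and 0.343, and mock replicate 3 with FK866 replicate 2 gave 0.235. The 2 FK866 arrays there deviate as mirror images, and the first pair shares a slide and makes up scan session 1. Pairing by number thus cannot be told apart from the session in CEM PA, and the replicate block rests on it. The number of arrays limits the precision, with a median standard error of 0.259 for the response in CEM PA, 0.200 in CEM RES and 0.327 for the interaction. Alternatives were 75th percentile scaling, normexp background correction (offset 50), other filters on dim probes, outlier spots left in and probes of 1 gene averaged. Each probe singly, the deposited table, array weights, a robust variance trend and each array left out in turn were also run. The replicate number, slide or scan session also served as a block. What is called the slide block used the slide within CEM RES and the scan session within CEM PA.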

Additional observations from a re-analysis of the deposited data

Results flagged for a closer look

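The difference between the lines was itself tested for the genes listed here, and each had an adjusted p under 0.05 in limma. The interactions were -2.77 for KLHL11, -3.08 for RGS1, -2.24 for FLCN, -2.53 for LATS1, -1.85 for KLHL15, -2.02 for MME, -1.72 for SPTBN1 and -1.79 for RMND5A. They were -1.58 for SAMD8, -1.99 for FAM22G, -1.37 for DNAJC3, 1.42 for PEX3, -1.40 for STK17B, -1.60 for CELF1 and -2.92 for the unnamed probe A_33_P3312754. They were -1.64 for SECISBP2L, -1.78 for MARCH8, -1.34 for PCGF3, -1.66 for RBM33, -1.64 for SEMA7A, -1.63 for WDR33, -3.24 for POLR2M and -1.41 for C6orf106. The POLR2M value is no measured size. Its probe was well above background on 0 of 3 mock arrays of CEM PA, 2 of 4 mock arrays of CEM RES and 0 of 4 FK866 arrays of CEM RES. It was kept through the FK866 group of CEM PA alone, so its call rests in part on the filter.

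At probes that are not the brightest of their gene the interactions were -1.94 for CREB3L2, 2.03 for DIS3L2, -3.02 for IKZF2, -2.85 for OPA1, -2.95 for RAI1, -1.69 for RPL28, -1.91 for SLC6A6, -3.52 for TAGAP, -3.01 for WNK1, 1.41 for ZNF248 and -2.14 for ZNF584.

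In 4 of 170 groups of 4 arrays examined 1 array stood apart by Dixon's test, where chance gives about 1 in 20. FAM22G was at 6.75 on mock replicate 1 of CEM RES against 6.11 to 6.17 on the other mock arrays. BCL2L2 was at 6.73 on mock replicate 3 of CEM RES against 7.25 to 7.30. PFKP was at 15.4 on FK866 replicate 4 of CEM RES against 14.78 to 14.84. The brightest RAI1 probe was at 11.3 on FK866 replicate 2 of CEM RES against 11.08 to 11.11.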

How the results depend on the processing

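The number of genes with an interaction at an adjusted p under 0.05, 23 as reported, was 9 with no filter on dim probes, 7 with the mean of a gene's probes, 94 with every probe tested singly, 15 with the slide as a block, 50 with array quality weights and 1 to 19 with 1 array left out. The 1186 genes past the double threshold became 718 with normexp background correction and 1828 with every probe singly, and those of CEM PA alone 351 and 1104 in place of 665. Those of CEM RES alone, 39 as reported, were 7 with normexp, 110 with no filter, 10 with the filter on all 13 arrays and 18 to 124 with 1 array left out. The share of CEM PA responders with mock-treated CEM RES nearer to drug-exposed CEM PA, 27.8%, was 39.9% with normexp, 10.8% with no filter, 39.2% with the filter on all 13 arrays, 43.7% with array weights and 0 to 38.6% with 1 array left out. The 60 calls at probes that are not the brightest became 96 with normexp, 33 with no filter, 161 with array weights and 7 to 87 with 1 array left out. The causes were not tested.

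Under the replicate block, which pairs arrays of equal number within a line, 31 genes passed in the interaction, 12 of them among the 23, and 244 probes that are not the brightest. The share nearer to drug-exposed CEM PA could not be computed with a replicate, slide or session block, which absorb the line, and the mean of probes has no meaning for single probes. A group left with 1 array was assumed to vary like the others.

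Sign changes were limited to 6 of the genes named by the rule. With the mean of a gene's probes the interaction was -0.36 for SLC6A6, -0.17 for RRM2B, -0.16 for NAMPT and 0.10 for LHPP. For ATF4 it was 0.15 with normexp, 0.045 with the replicate block and 0.085 with array weights, and for SLC7A5 -0.034 with 75th percentile scaling and -0.030 with array weights. With 1 array left out LHPP ran from -0.41 to 0.22, ATF4 from -0.14 to 0.048 and SLC7A5 from -0.11 to 0.17. Over all single genes and probes and their alternatives, 1864 values kept direction and side of the threshold. A further 274 kept direction and lost the call, and 20 changed sign. All 274 lost calls fell on genes and probes called in the main fit, while the 1864 include many values of genes with no call to lose. The pooled counts are thus no measure of how stable the calls were.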
